A study of Homo sapiens with 24 samples.

Results

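The DNA replication machinery was followed as 39 genes among the 25343 listed per library, chosen by name for their known work at the replication fork. The choice was made with earlier results of these data known. They were 10 genes of origin licensing, 7 of origin firing and the fork, 7 of the polymerases and primase, 8 of the sliding clamp, clamp loader and lagging strand, 4 of nucleotide supply, and 3 regulators (E2F1, E2F2 and UHRF1). All 39 matched 1 entry each and all 39 passed the filter on low counts in every fit.

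The study tested an inhibitor of PTDSS1, one of the 2 phosphatidylserine synthases of human cells, in cancer cells that had lost the other, PTDSS2. RNA was read from A375, a melanoma line, and HCT116, a colon cancer line. In each line 1 PTDSS2 knockout clone (KO#54 of A375 and KO#3 of HCT116) with 0.1 µM of the inhibitor DS07551382 was set against the same clone with the vehicle DMSO, and the parent line was treated in the same 2 ways. Cells in 12-well plates were exposed for 24 h, and poly(A) RNA gave 3 libraries per group and 24 libraries in all. Because each knockout was 1 clone, loss of PTDSS2 and other properties of that clone cannot be told apart. The labels do not say whether the 3 libraries of a group were separate cultures, and the p-values below therefore speak only of the library-to-library spread, which could be technical.

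In vehicle PTDSS2 was lower in both knockouts than in their parents. In A375 it had 0.921, 0.996 and 0.724 counts per 1e6 (CPM) in knockout vehicle, against 24.1, 22.2 and 23.2 CPM in parent vehicle, a log2 difference of -4.71 ± 0.18 (SE; adjusted p = 2.08e-29). In HCT116 it had 5.46, 6.42 and 7.91 CPM in knockout vehicle, against 36.1, 33.1 and 37.8 CPM in parent vehicle, a log2 difference of -2.43 ± 0.11 (adjusted p = 1.23e-28). With inhibitor the A375 knockout had 1.91, 1.17 and 1.80 CPM, which was called higher than with vehicle (0.89 ± 0.31, adjusted p = 0.0289), and the HCT116 knockout had 7.19, 4.87 and 5.07 CPM, which was not called (-0.18 ± 0.17). All 6 knockout libraries with inhibitor stayed below every parent library of their line. In units of 1e6 counts, the libraries held 6.21 to 11.69. The A375 knockout with inhibitor was the deepest group, at 10.5 ± 1.14 (SD, n = 3), and the HCT116 knockout with inhibitor the shallowest, at 6.89 ± 0.901, and the part of depth in the number of calls was not tested. Of the lineage markers, A375 parent vehicle had SOX10 at 288 TPM and S100B at 48.1 TPM with the pigment genes MLANA, TYR, TYRP1, DCT and PMEL at 0.45 TPM or less, and HCT116 parent vehicle had EPCAM at 360 TPM and KRT8 at 2352 TPM with VIL1, CDX1, CEACAM5, LGALS4 and KRT20 at 0.807 TPM or less (TPM, transcripts per 1e6, is per length).

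Before S phase, the origin recognition complex, CDC6 and CDT1 load rings of MCM2 to MCM7 onto DNA, which licenses the origin. In S phase MCM10, CDC45 and the GINS complex turn the loaded rings into working helicases, primase and DNA polymerase alpha start each strand, and polymerases delta and epsilon extend them on the PCNA clamp that replication factor C loads. FEN1 and LIG1 process and seal lagging-strand fragments, and ribonucleotide reductase, thymidylate synthase and thymidine kinase supply the deoxynucleotides. Many of these genes are transcribed in late G1 and S phase under E2F factors, so in bulk RNA a smaller share of cells in S phase and less RNA per cell cannot be told apart.

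In the knockouts the inhibitor lowered most of the replication genes by a modest amount, and in the parents it moved 0 of them past the threshold. A gene was called when its adjusted p in edgeR's quasi-likelihood test was under 0.05. In the A375 knockout 35 of 39 fell and 0 rose, where 18.8% of all 13455 genes tested fell and 18.7% rose. The median log2 fold change of the 39 was -0.25, with a range of -0.49 to -0.00, and that of all genes was 0.01. In the HCT116 knockout 21 of 39 fell and 0 rose, where 20.1% of all 13164 genes fell and 17.1% rose. The median of the 39 was -0.15, with a range of -0.46 to 0.05, and that of all genes was 0.00. These ranges correspond to 71.3% to 99.7% of the vehicle level in A375 and to 72.8% to 104% in HCT116.

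The libraries gave the same picture before any test. For 28 of the 39 genes the 3 inhibitor-treated A375 knockout libraries were the lowest 3 of the 12 A375 libraries, which held for 13.1% of all genes. For 21 of the 39 the inhibitor-treated HCT116 knockout libraries were the lowest 3 of 12, which held for 17.6% of all genes. Summed over the 39 genes, TPM was 3807 ± 14.1 in the A375 knockout with inhibitor, 4517 ± 15.6 in the A375 knockout with vehicle, 4439 ± 4.0 in the A375 parent with inhibitor and 4377 ± 35.0 in the A375 parent with vehicle (SD, n = 3 each). The HCT116 sums were 4975 ± 14.4 in the knockout with inhibitor, 5510 ± 21.6 in the knockout with vehicle, 5785 ± 45.8 in the parent with inhibitor and 5822 ± 45.9 in the parent with vehicle.

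In the parents the inhibitor called 0 of 39 in A375, where 0.104% of all genes were called, and 0 of 39 in HCT116, where 0% were. DESeq2 also called 0 in both. At an unadjusted p under 0.05 there were 3 in A375 (MCM6, RRM2 and TK1) and 1 in HCT116 (E2F1). The fitted values ran from -0.05 to 0.12 in the A375 parent and from -0.17 to 0.09 in the HCT116 parent. The genotype by inhibitor interaction, the knockout's inhibitor effect less the parent's, called 31 of 39 downward and 0 upward in A375, where 14% of all genes were called downward. In HCT116 it called 19 downward and 0 upward, where 13.8% of all genes were called downward. DESeq2 called 12 of these 19, and 12 held in every alternative.

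**Figure D1:**
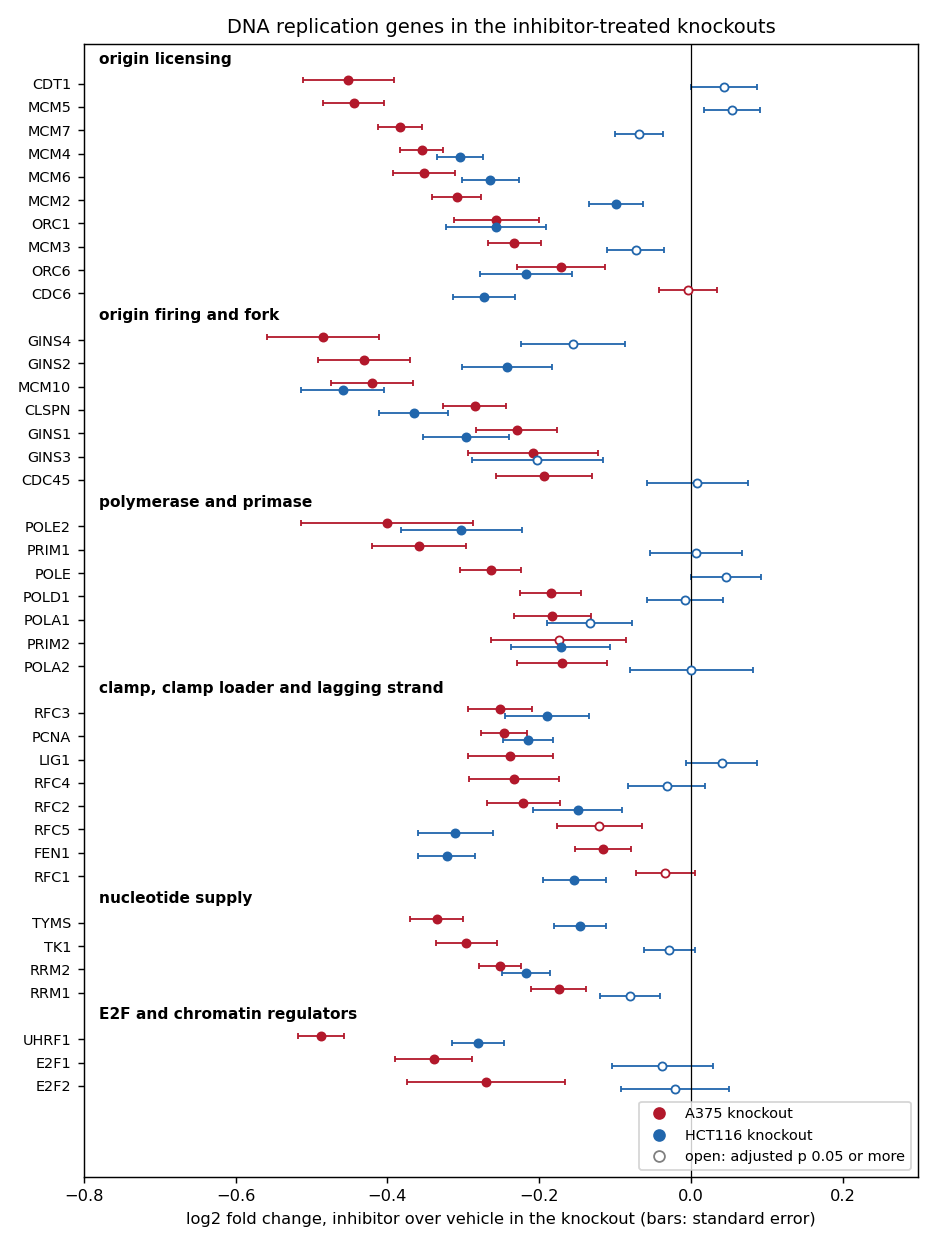
Log2 fold change of inhibitor over vehicle (x axis) in the A375 knockout (red) and the HCT116 knockout (blue) for the 39 replication genes, grouped by role, with standard errors and open points where adjusted p was 0.05 or more. The 39 red points all lie at or below 0, from -0.49 to -0.00, and the blue points run from -0.46 to 0.05.

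The upstream sequences of 4 members are shown because E2F sites are the best known shared element of these promoters and because they hold genes that fell in both knockouts (MCM6, UHRF1 and MCM10) and a gene called in A375 alone (CDT1). RefSeq promoter windows (build GRCh38.p14) were found for 36 of the 39, the others being MCM4, MCM5 and GINS4. Each run below is the 250 bases before the gene's start on the gene's own strand, and capitals mark matches to the E2F motifs TTTCCCGC, TTTCGCGC, TTTGCCGC or TTTGGCGC on either strand. MCM6, a ring subunit, is at chr2:135876444-135876693 on the minus strand. CDT1, the loading factor, is at chr16:88803539-88803788 on the plus strand. UHRF1, with the largest fall in A375, is at chr19:4909251-4909500 on the plus strand, and MCM10, with the largest fall in HCT116, is at chr10:13161308-13161557 on the plus strand.
MCM6: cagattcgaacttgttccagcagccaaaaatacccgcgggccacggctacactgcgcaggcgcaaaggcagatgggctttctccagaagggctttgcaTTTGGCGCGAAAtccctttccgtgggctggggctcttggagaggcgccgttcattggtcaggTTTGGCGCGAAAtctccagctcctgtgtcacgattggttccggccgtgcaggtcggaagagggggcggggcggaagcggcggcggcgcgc
CDT1: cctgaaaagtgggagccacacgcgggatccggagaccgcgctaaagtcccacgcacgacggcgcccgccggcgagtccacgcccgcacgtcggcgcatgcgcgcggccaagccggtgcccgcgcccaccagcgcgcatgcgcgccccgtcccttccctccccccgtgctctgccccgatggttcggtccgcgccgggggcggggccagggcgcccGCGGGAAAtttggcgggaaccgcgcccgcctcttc
UHRF1: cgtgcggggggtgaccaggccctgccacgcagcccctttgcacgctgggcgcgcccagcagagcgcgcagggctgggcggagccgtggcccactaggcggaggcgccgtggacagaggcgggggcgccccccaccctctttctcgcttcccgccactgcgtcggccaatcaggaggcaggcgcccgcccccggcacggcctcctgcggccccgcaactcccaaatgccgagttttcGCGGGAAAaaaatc
MCM10: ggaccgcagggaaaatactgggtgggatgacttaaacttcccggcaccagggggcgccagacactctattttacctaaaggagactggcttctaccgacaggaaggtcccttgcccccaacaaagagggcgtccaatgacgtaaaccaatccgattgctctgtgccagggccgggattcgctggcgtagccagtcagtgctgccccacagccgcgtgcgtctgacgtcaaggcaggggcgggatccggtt

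MCM6 holds 4 matches, in 2 places where a match on each strand overlaps the other, CDT1 and UHRF1 hold 1 each, and MCM10 holds none in this window. Over the whole 300-base window, which adds 50 bases after the start, 21 of 36 members (58.3%) held an E2F match, against 3.33% of 27305 promoters in the table. In the 250 bases before the start alone 15 of 36 (41.7%) did, against 2.79%. The CCAAT box was in 21 of 36 (58.3%), against 35.7% of all promoters. The CHR motif, spelled TTTGAA or TTTAAA, was in 3 of 36 (8.33%), against 24.3%, and these 3 were RRM1, RRM2 and TK1. In the 300-base window an E2F match was found in 10 of the 16 matched genes that fell in both knockouts. It was found in 10 of the 16 called in A375 and not in HCT116, and in 1 of the 4 called in HCT116 and not in A375. In the 250 bases before the start these counts were 6 of 16, 9 of 16 and 0 of 4. A match is a run of letters and was not tested as a bound site.

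Among the origin licensing genes, 9 of 10 fell in the A375 knockout with a median of -0.33, and 6 of 10 fell in the HCT116 knockout with a median of -0.16. This count and those of the roles below stand beside the 18.8% of all genes that fell in A375 and the 20.1% in HCT116. MCM4 and MCM6, of the ring, fell in both. MCM4 had 383, 380 and 370 CPM in the A375 knockout with inhibitor, against 486, 488 and 475 CPM with vehicle, a log2 fold change of -0.35 ± 0.03 (adjusted p = 4.21e-16). MCM4 also had 469, 474 and 465 CPM in the HCT116 knockout with inhibitor, against 568, 587 and 584 CPM with vehicle (-0.30 ± 0.03, adjusted p = 6.93e-13). In both lines the groups did not overlap. MCM6 had 115, 118 and 110 CPM in the A375 knockout with inhibitor, against 149, 147 and 142 CPM with vehicle (-0.35 ± 0.04, adjusted p = 1.36e-10). MCM6 in the HCT116 knockout had 210, 208 and 200 CPM with inhibitor, against 243, 244 and 256 CPM with vehicle (-0.26 ± 0.04, adjusted p = 2.85e-08), and again neither pair of groups overlapped.

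MCM5 fell in A375 and was not called in HCT116. It had 112, 103 and 112 CPM in the A375 knockout with inhibitor, against 151, 145 and 148 CPM with vehicle (-0.44 ± 0.04, adjusted p = 3.89e-14). Its HCT116 knockout values were 249, 245 and 254 CPM with inhibitor, against 242, 246 and 233 CPM with vehicle (0.05 ± 0.04, adjusted p = 0.26), and the groups overlapped. MCM7 had 407, 424 and 406 CPM in the A375 knockout with inhibitor, against 557, 530 and 525 CPM with vehicle (-0.38 ± 0.03, adjusted p = 2.94e-17), and was at -0.07 ± 0.03 in HCT116 (adjusted p = 0.08). MCM7 shares 604 bases of its span with AP4M1, and without a strand a read there could come from either gene. The overlap is of whole spans, and whether exons are shared was not checked. MCM2 fell in both knockouts, by 0.31 ± 0.03 on the log2 scale in A375 and by 0.10 ± 0.04 in HCT116, where it lost its call in 4 of 14 alternatives. MCM3 gave -0.23 ± 0.03 in A375 and -0.07 ± 0.04, not called, in HCT116.

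Of the loading factors CDT1 and CDC6, which act together on the origin, each fell in 1 line. CDT1 had 52.8, 55.1 and 48.9 CPM in the A375 knockout with inhibitor, against 70.7, 75.4 and 68.3 CPM with vehicle (-0.45 ± 0.06, adjusted p = 9.47e-09). CDT1 in the HCT116 knockout had 138, 143 and 138 CPM with inhibitor, against 139, 136 and 131 CPM with vehicle (0.04 ± 0.04, adjusted p = 0.467). CDC6 had 131, 138 and 138 CPM in the A375 knockout with inhibitor, against 134, 137 and 138 CPM with vehicle, with overlapping groups and a fold change of -0.00 ± 0.04 (adjusted p = 0.95). CDC6 in the HCT116 knockout had 146, 142 and 142 CPM with inhibitor, against 173, 170 and 176 CPM with vehicle, without overlap (-0.27 ± 0.04, adjusted p = 7.27e-08). ORC1, the cycling subunit of the recognition complex, gave -0.26 ± 0.06 in A375 and -0.26 ± 0.07 in HCT116, and its span shares 4902 bases with PRPF38A. ORC6 gave -0.17 ± 0.06 in A375, a call lost in some alternatives, and -0.22 ± 0.06 in HCT116.

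**Figure D2:**
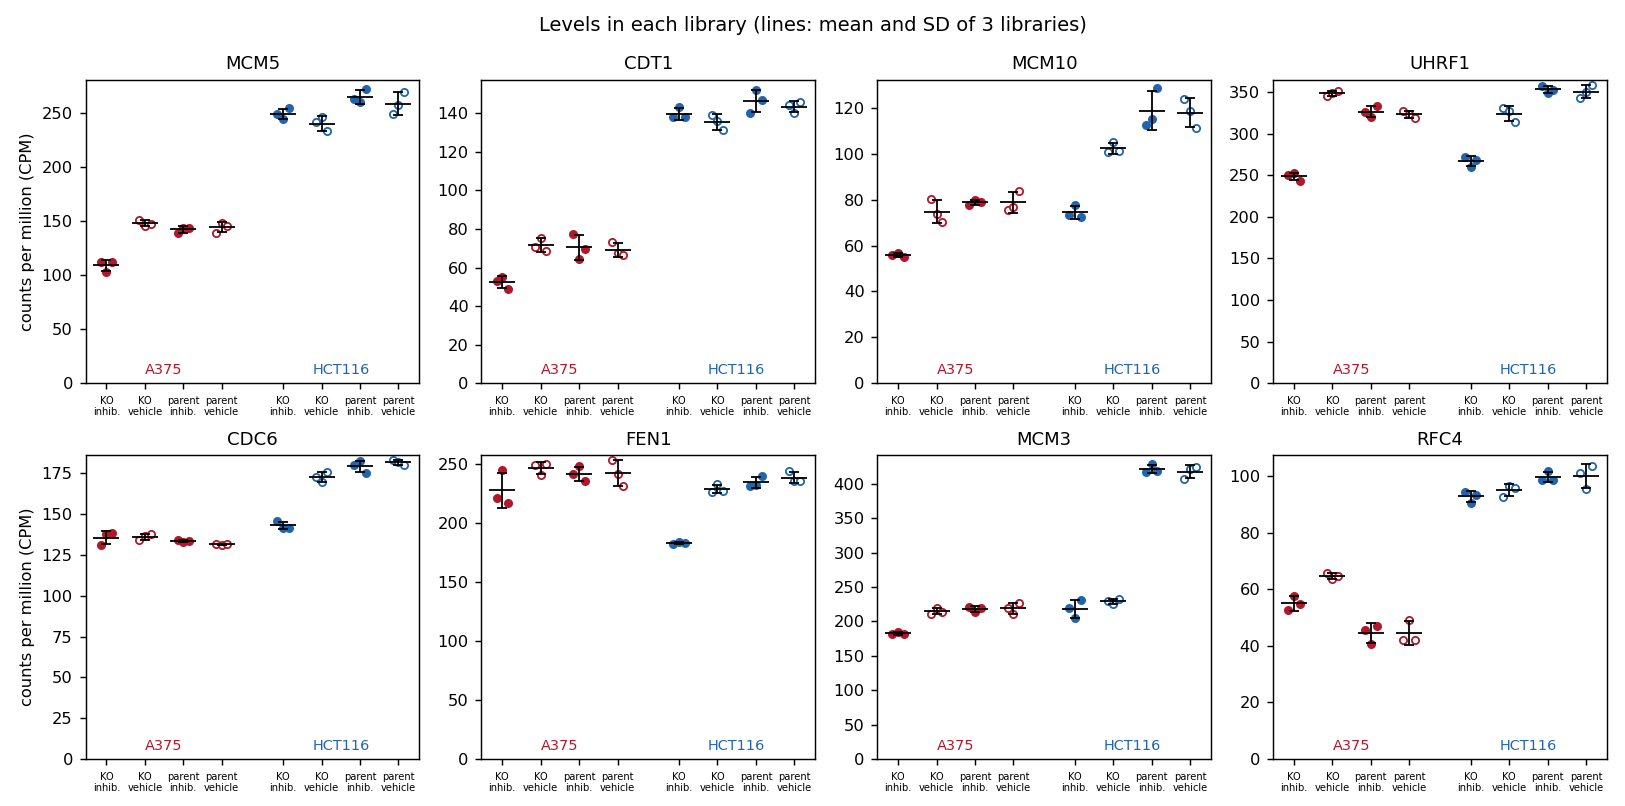
CPM (y axis, from 0) of 8 members in every library, with the knockout groups left of the parent groups within each line, inhibitor (filled) left of vehicle (open), and lines for the mean and SD of 3 libraries. MCM5 and CDT1 were lowest in the A375 knockout with inhibitor, CDC6 and FEN1 in the HCT116 knockout with inhibitor among the HCT116 groups, and MCM10 and UHRF1 in both.

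Of the genes of origin firing and the fork, 7 of 7 fell in the A375 knockout (median -0.29) and 4 of 7 in the HCT116 knockout (median -0.24). In A375 the call of GINS3 was lost in 11 of 14 alternatives and that of CDC45 in 3 of 14. MCM10, which binds the activated helicase, had 55.9, 56.9 and 55.2 CPM in the A375 knockout with inhibitor, against 80.2, 73.7 and 70.5 CPM with vehicle (-0.42 ± 0.05, adjusted p = 2.16e-09). MCM10 in the HCT116 knockout had 73.4, 77.7 and 72.3 CPM with inhibitor, against 101, 105 and 101 CPM with vehicle (-0.46 ± 0.05, adjusted p = 1.94e-10). The groups did not overlap in either line. CLSPN, the fork adaptor of the checkpoint kinase CHK1, had 111, 117 and 110 CPM in the A375 knockout with inhibitor, against 138, 138 and 135 CPM with vehicle (-0.28 ± 0.04, adjusted p = 7.22e-08). CLSPN in the HCT116 knockout had 109, 114 and 113 CPM with inhibitor, against 140, 148 and 145 CPM with vehicle, again without overlap (-0.37 ± 0.05, adjusted p = 5.79e-10).

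The 4 GINS subunits form 1 complex. GINS2 had 40.8, 41.6 and 40.6 CPM in the A375 knockout with inhibitor, against 53.6, 52.4 and 59.4 CPM with vehicle (-0.43 ± 0.06, adjusted p = 3.07e-08). GINS2 in the HCT116 knockout had 66.2, 71.9 and 66.0 CPM with inhibitor, against 74.5, 89.1 and 77.9 CPM with vehicle (-0.24 ± 0.06, adjusted p = 0.000675). GINS4 was at -0.48 ± 0.07 in A375 and, not called, at -0.16 ± 0.07 in HCT116 (adjusted p = 0.0677). GINS1 fell in both knockouts, by 0.23 ± 0.05 in A375 and by 0.30 ± 0.06 in HCT116. GINS3 fell by 0.21 ± 0.09 in A375, close to the threshold (adjusted p = 0.0498), and was at -0.20 ± 0.09 in HCT116 (adjusted p = 0.0561). CDC45, the helicase cofactor, gave -0.19 ± 0.06 in A375 (adjusted p = 0.0122) and 0.01 ± 0.07 in HCT116 (adjusted p = 0.94).

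Of the polymerase and primase genes, 6 of 7 fell in the A375 knockout (median -0.18) and 2 of 7 in the HCT116 knockout (median -0.01). The HCT116 share, 28.6%, is near the 20.1% of all genes that fell there, and the median of all genes was 0.00. PRIM1, the catalytic primase subunit, had 37.0, 41.5 and 38.7 CPM in the A375 knockout with inhibitor, against 49.7, 48.4 and 52.0 CPM with vehicle, without overlap (-0.36 ± 0.06, adjusted p = 3.11e-06). PRIM1 in the HCT116 knockout had 61.8, 64.1 and 64.2 CPM with inhibitor, against 57.0, 65.2 and 66.8 CPM with vehicle, with overlap (0.01 ± 0.06, adjusted p = 0.943). POLE, the catalytic subunit of polymerase epsilon, had 128, 132 and 123 CPM in the A375 knockout with inhibitor, against 150, 158 and 152 CPM with vehicle (-0.26 ± 0.04, adjusted p = 1.37e-07), and was at 0.05 ± 0.05 in HCT116.

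POLE2, the second subunit of polymerase epsilon, was the only member of this role that fell in both knockouts. It had 10.6, 9.72 and 11.8 CPM in the A375 knockout with inhibitor, against 13.2, 15.1 and 14.5 CPM with vehicle (-0.40 ± 0.11, adjusted p = 0.00348). POLE2 in the HCT116 knockout had 28.0, 28.6 and 28.2 CPM with inhibitor, against 33.9, 33.8 and 36.9 CPM with vehicle (-0.30 ± 0.08, adjusted p = 0.00165). PRIM2, the large primase subunit, had 20.3, 18.7 and 22.4 CPM in the A375 knockout with inhibitor, against 23.03, 24.77 and 21.81 CPM with vehicle, with overlap and no call (-0.17 ± 0.09). PRIM2 in the HCT116 knockout had 51.6, 53.8 and 44.1 CPM with inhibitor, against 56.5, 56.7 and 55.6 CPM with vehicle, without overlap (-0.17 ± 0.07, adjusted p = 0.0316), a call lost in 5 of 14 alternatives. Its span shares 768 bases with RAB23. The polymerase alpha genes POLA1 and POLA2 and the polymerase delta gene POLD1 fell in A375 by 0.17 to 0.18 on the log2 scale and were not called in HCT116, with values of -0.13, 0.00 and -0.01.

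Of the clamp, clamp loader and lagging strand genes, 6 of 8 fell in each knockout, with medians of -0.23 in A375 and -0.17 in HCT116. PCNA, the clamp, had the highest level per length of the 39 genes in A375, at 473 ± 0.546 TPM in the knockout with inhibitor and 550 ± 9.28 TPM with vehicle (SD, n = 3). It had 292, 299 and 292 CPM in the A375 knockout with inhibitor, against 352, 351 and 345 CPM with vehicle (-0.25 ± 0.03, adjusted p = 6.97e-10). PCNA in the HCT116 knockout had 356, 349 and 345 CPM with inhibitor, against 398, 415 and 405 CPM with vehicle (-0.21 ± 0.03, adjusted p = 2.27e-07). RFC3, a clamp loader subunit, had 105, 105 and 114 CPM in the A375 knockout with inhibitor, against 127, 130 and 129 CPM with vehicle (-0.25 ± 0.04, adjusted p = 1.45e-06). RFC3 in the HCT116 knockout had 70.0, 74.3 and 75.0 CPM with inhibitor, against 85.1, 80.7 and 83.8 CPM with vehicle (-0.19 ± 0.06, adjusted p = 0.00444), and neither pair of groups overlapped. RFC2, another, fell by 0.22 ± 0.05 in A375 and by 0.15 ± 0.06 in HCT116, where the call was lost in 8 of 14 alternatives.

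FEN1, the flap endonuclease, fell more in HCT116. It had 221, 244 and 217 CPM in the A375 knockout with inhibitor, against 249, 240 and 250 CPM with vehicle, with overlap (-0.12 ± 0.04, adjusted p = 0.0104). In the HCT116 knockout it had 182, 184 and 183 CPM with inhibitor, against 226, 233 and 227 CPM with vehicle, without overlap (-0.32 ± 0.04, adjusted p = 6.79e-11). LIG1, the ligase that seals the fragments, gave -0.24 ± 0.06 in A375 and 0.04 ± 0.05 in HCT116. RFC5 was at -0.12 ± 0.06, not called, in A375 and at -0.31 ± 0.05 in HCT116, where its span shares 8762 bases with WSB2, a gene at 71.2 TPM on average. RFC1, the large loader subunit, gave -0.03 ± 0.04 in A375 and -0.15 ± 0.04 in HCT116. RFC4 fell in A375 by 0.23 ± 0.06 and was at -0.03 ± 0.05 in HCT116.

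All 4 nucleotide supply genes fell in the A375 knockout (median -0.27) and 2 of 4 fell in the HCT116 knockout (median -0.11). RRM2, the S phase subunit of ribonucleotide reductase, had 498, 511 and 509 CPM in the A375 knockout with inhibitor, against 601, 597 and 609 CPM with vehicle (-0.25 ± 0.03, adjusted p = 1.62e-11). RRM2 in the HCT116 knockout had 528, 532 and 530 CPM with inhibitor, against 596, 637 and 615 CPM with vehicle (-0.22 ± 0.03, adjusted p = 5.91e-08). Neither pair of groups overlapped. RRM1, its partner subunit, gave -0.17 ± 0.04 in A375 and -0.08 ± 0.04, not called, in HCT116.

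The thymidylate genes fell further in A375. TYMS, thymidylate synthase, had 247, 248 and 241 CPM in the A375 knockout with inhibitor, against 301, 301 and 325 CPM with vehicle (-0.33 ± 0.03, adjusted p = 6.65e-12). It had 321, 304 and 303 CPM in the HCT116 knockout with inhibitor, against 342, 353 and 334 CPM with vehicle (-0.15 ± 0.03, adjusted p = 0.000432). The TYMS span shares 10593 bases with ENOSF1, a gene at 17.9 TPM on average. TK1, the S phase thymidine kinase, had 129, 141 and 130 CPM in the A375 knockout with inhibitor, against 164, 163 and 164 CPM with vehicle (-0.30 ± 0.04, adjusted p = 1.11e-08), and was at -0.03 ± 0.03 in HCT116 (adjusted p = 0.549).

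All 3 regulators fell in the A375 knockout and 1 fell in the HCT116 knockout, where 18.8% and 20.1% of all genes fell. UHRF1, which guides maintenance DNA methylation behind the fork, had 250, 253 and 244 CPM in the A375 knockout with inhibitor, against 345, 349 and 352 CPM with vehicle (-0.49 ± 0.03, adjusted p = 1.01e-20). In the HCT116 knockout it had 272, 260 and 268 CPM with inhibitor, against 331, 327 and 315 CPM with vehicle (-0.28 ± 0.03, adjusted p = 5.6e-10). E2F1 had 67.6, 68.2 and 69.3 CPM in the A375 knockout with inhibitor, against 88.8, 91.8 and 79.4 CPM with vehicle (-0.34 ± 0.05, adjusted p = 1.07e-07). E2F1 in the HCT116 knockout had 46.7, 46.3 and 44.9 CPM with inhibitor, against 48.5, 44.5 and 48.6 CPM with vehicle, with overlap (-0.04 ± 0.07, adjusted p = 0.711). E2F2 was at -0.27 ± 0.10 in A375 (adjusted p = 0.0339), a call lost in 8 of 14 alternatives, and -0.02 ± 0.07 in HCT116.

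Set side by side, origin licensing, polymerase and nucleotide supply genes had medians of -0.33, -0.18 and -0.27 in the A375 knockout and of -0.16, -0.01 and -0.11 in the HCT116 knockout. The polymerase and primase median was the closest to 0 of the 6 roles in both knockouts. These medians are descriptions of 10, 7 and 4 genes and were not tested against each other. The interaction with genotype was called downward for 9 of 10 licensing, 4 of 7 polymerase and 4 of 4 nucleotide supply genes in A375. In HCT116 it was called downward for 4, 3 and 3 of them. Of all genes, 14% were called downward in A375 and 13.8% in HCT116. With DESeq2 all 3 HCT116 polymerase calls (POLA1, PRIM2 and POLE2) and 2 of the 3 nucleotide supply calls (RRM1 and TYMS) were lost, as were those of ORC1, ORC6 and POLE2 in A375.

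In all, 17 genes fell in both knockouts: ORC1, ORC6, MCM2, MCM4, MCM6, MCM10, GINS1, GINS2, CLSPN, POLE2, PCNA, RFC2, RFC3, FEN1, RRM2, TYMS and UHRF1. A further 18 fell in A375 and were not called in HCT116, and 4 (CDC6, PRIM2, RFC1 and RFC5) fell in HCT116 and were not called in A375. Whether the effects differed was tested directly in a fit of all 24 libraries, in which the 2 knockouts share no library. The effect was more negative in A375 for 13 of 39 genes, where 8.75% of 14637 genes were, and more positive for 2, where 10.9% were. The 3 most negative differences were MCM5 at -0.49 ± 0.05 (adjusted p = 2.42e-12), CDT1 at -0.49 ± 0.07 (adjusted p = 8.98e-08) and PRIM1 at -0.36 ± 0.09 (adjusted p = 0.000877). The 2 positive ones were CDC6 at 0.27 ± 0.06 (adjusted p = 6.46e-05) and FEN1 at 0.21 ± 0.05 (adjusted p = 0.00149). The others more negative in A375 were MCM2, MCM3, MCM7, GINS4, POLE, LIG1, TYMS, TK1, E2F1 and UHRF1, at -0.32 to -0.15.

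For the remaining 24 genes a difference was not called, which does not show equal effects. MCM10, MCM4, MCM6, PCNA and RRM2 were among them, at 0.04 ± 0.08, -0.04 ± 0.04, -0.08 ± 0.06, -0.03 ± 0.05 and -0.03 ± 0.04. Licensing, with 10 of the 39 genes, held 6 of the 15 called differences, where 19.7% of all genes were called. Of the 6 ring subunits MCM2, MCM3, MCM5 and MCM7 differed between the knockouts while MCM4 and MCM6 were not called.

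**Figure D3:**
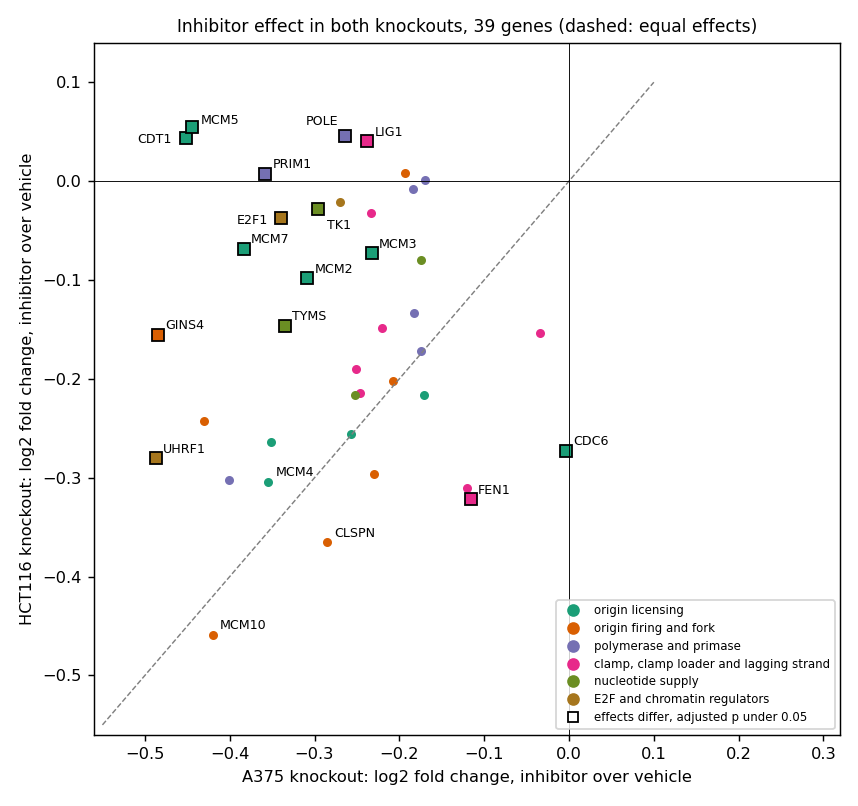
Log2 fold change of inhibitor over vehicle in the A375 knockout (x axis) against that in the HCT116 knockout (y axis) for the 39 genes, coloured by role, with black-edged squares for the 15 genes whose effects differed at an adjusted p under 0.05. MCM5 and CDT1 stand furthest above the dashed line of equal effects, and CDC6 and FEN1 lie below it.

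In the HCT116 knockout the genes that were not called were mostly those with GC-rich transcripts. GC content was available for 38 of 39 genes (all but RFC5). The 21 genes under 50% GC had a median log2 fold change of -0.22 and 15 of them fell, and the 17 genes at 50% or more had a median of -0.03 and 5 fell. The Spearman correlation of GC content with the log2 fold change was 0.47 over these 38 genes and 0.13 over all genes, which share libraries and are not independent replicates. After a GC correction the medians were -0.19 and -0.06, 14 and 6 genes fell, and the correlations were 0.33 over the 38 genes and 0.02 over all genes. In the A375 knockout the medians of the same 2 classes were -0.25 and -0.26, with 18 and 17 genes called, and the correlation was -0.24 over the 38 genes and -0.01 over all genes. In the A375 minus HCT116 difference of the effect, 4 of the 21 genes under 50% GC and 11 of the 17 others were called. Its correlation with GC was -0.55 over the 38 genes and -0.11 over all genes. After the correction these values were 5, 11, -0.45 and 0.01. The HCT116 interaction was called for 15 and 3 genes (correlation 0.515), and after the correction for 10 and 5 (0.392). The cause of these splits was not tested. MCM5, at 56.6% GC, and CDT1, at 64.9% GC, are in the GC-rich class, and PRIM1, at 40.1% GC, is not.

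**Figure D4:**
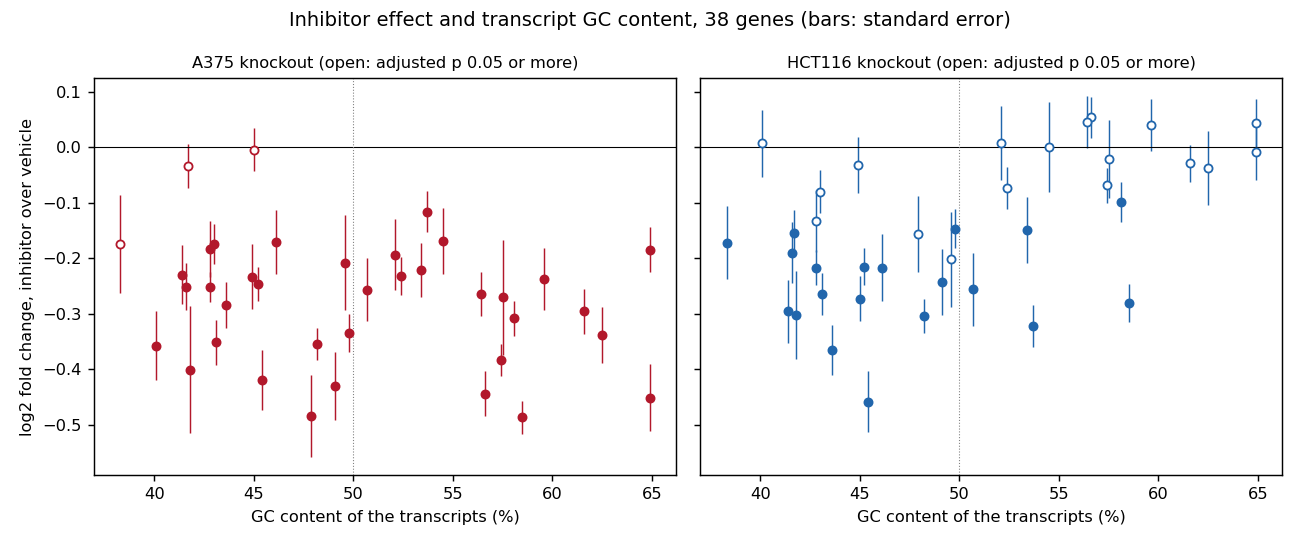
Log2 fold change of inhibitor over vehicle (y axis, with standard errors) against the GC content of the transcripts in percent (x axis) for 38 genes, in the A375 knockout (left) and the HCT116 knockout (right), with open points where adjusted p was 0.05 or more and a dotted line at 50%. In HCT116 most open points lie right of the line, and in A375 called genes lie on both sides.

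Knockout and parent were also compared in vehicle. In the A375 knockout 11 of 39 were higher and 0 lower than in the parent, where 9.54% of all genes were higher. In the HCT116 knockout 1 was higher, where 10.5% of all genes were, and 10 were lower, where 10.8% were. Medians of the 39 were 0.05 in A375 and -0.07 in HCT116. These values share the knockout vehicle libraries with the inhibitor comparisons, so the 2 sets are not independent. Few of these calls were stable: 2 of 11 in A375 and 5 of 11 in HCT116 held in every alternative.

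MCM3 was the exception in size. It had 230, 226 and 233 CPM in HCT116 knockout vehicle, against 407, 421 and 424 CPM in parent vehicle (-0.86 ± 0.03, adjusted p = 3.77e-32), and 219, 205 and 231 CPM in the knockout with inhibitor, against 418, 429 and 419 CPM in the parent with inhibitor. Of the other ring subunits in HCT116 knockout vehicle, MCM6 was also lower than in the parent (-0.14 ± 0.04, adjusted p = 0.00161), a call that held in every alternative. MCM5 was at -0.11 ± 0.04 (adjusted p = 0.0226), a call lost in 4 of 14 alternatives, and MCM2, MCM4 and MCM7 were not called, at -0.02 to 0.01. Set against the mean TPM of the other 5 subunits, MCM3 stood at 0.628 ± 0.0407 in the HCT116 knockout with inhibitor, 0.608 ± 0.0207 in the knockout with vehicle, 1.08 ± 0.0125 in the parent with inhibitor and 1.08 ± 0.0174 in the parent with vehicle (SD, n = 3 each). In A375 the ratio was 0.8 ± 0.00968 in the knockout with inhibitor, 0.73 ± 0.0257 in the knockout with vehicle, 0.736 ± 0.014 in the parent with inhibitor and 0.757 ± 0.0328 in the parent with vehicle, and MCM3 was at -0.03 ± 0.03 between knockout and parent in vehicle.

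**Figure D5:**
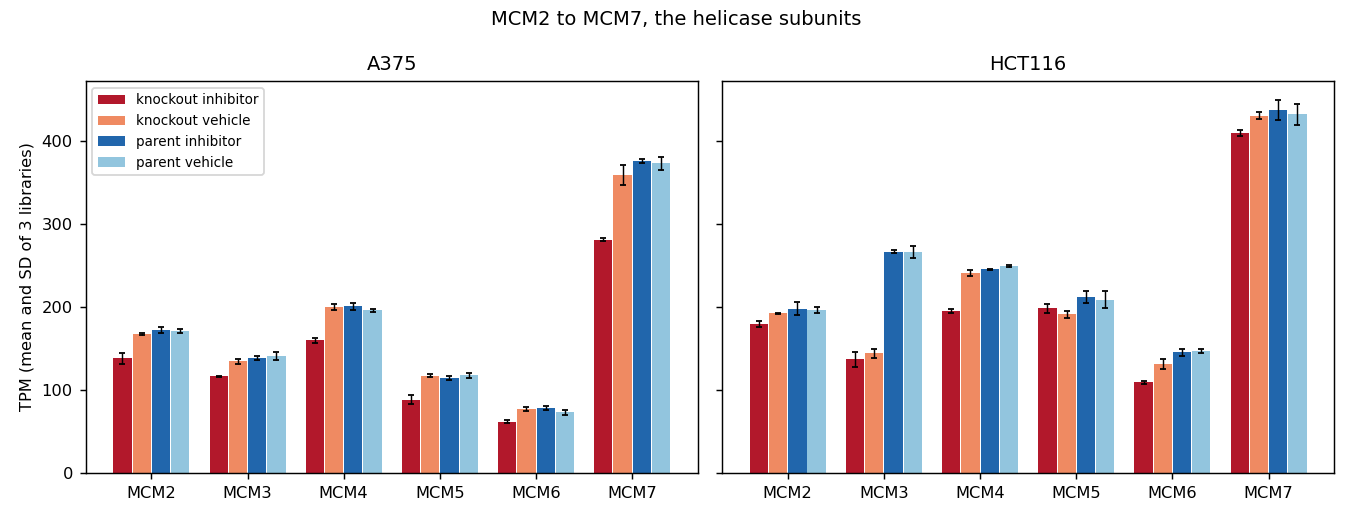
Level per length in TPM (y axis, from 0; mean and SD of 3 libraries) of the 6 helicase ring subunits in A375 (left) and HCT116 (right), with bars in the order knockout with inhibitor, knockout with vehicle, parent with inhibitor and parent with vehicle. MCM3 in HCT116 stands at 137 and 144 TPM in the knockout groups and at 267 and 266 TPM in the parent groups.

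RFC4 was the largest rise in A375 knockout vehicle. It had 65.7, 63.5 and 64.6 CPM there, against 41.9, 49.2 and 42.1 CPM in A375 parent vehicle, without overlap (0.54 ± 0.06, adjusted p = 8.09e-10). GINS2 was second at 0.21 ± 0.06 (adjusted p = 0.0118), a call lost with DESeq2, without knockout vehicle replicate 3 and without parent vehicle replicate 3. In HCT116 TK1 had 392, 410 and 388 CPM in knockout vehicle, against 326, 324 and 334 CPM in parent vehicle (0.27 ± 0.03, adjusted p = 5.68e-10). RFC5 had 117, 117 and 117 CPM in HCT116 knockout vehicle, against 138, 140 and 129 CPM in parent vehicle (-0.21 ± 0.04, adjusted p = 0.000167).

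The parent lines differed in 35 of the 39 genes (89.7%) before any treatment, near the 81.8% of all genes tested that differed. In vehicle 29 of 39 were lower in A375 than in HCT116, where 39.6% of all genes were, and 6 were higher, where 42.2% were. E2F2 was the lowest relative to HCT116, at 7.5 ± 0.675 TPM in A375 parent vehicle and 19.5 ± 1.55 TPM in HCT116 parent vehicle (SD, n = 3 each; -1.33 ± 0.08). POLE2 followed at 16.1 ± 0.993 TPM in A375 and 40.4 ± 1.59 TPM in HCT116 (-1.28 ± 0.09), and TK1 had 196 ± 10.7 TPM in A375 and 431 ± 11 TPM in HCT116 (-1.08 ± 0.04). E2F1 went the other way, at 57.9 ± 1.26 TPM in A375 and 37.1 ± 1.25 TPM in HCT116 (0.69 ± 0.06), and RFC3 had 110 ± 3.57 TPM in A375 and 74.9 ± 2.98 TPM in HCT116 (0.61 ± 0.05). Per length, PCNA was highest in both parents, at 523 ± 12.8 TPM in A375 and 686 ± 16.2 TPM in HCT116, and the lowest was E2F2.

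The other genes of the pathway fell more often than they rose in both knockouts, and their counts stand beside the 18.8% of all genes that fell and 18.7% that rose in A375 and the 20.1% that fell and 17.1% that rose in HCT116. Of 31 other replication factors 21 fell and 1 rose in the A375 knockout with inhibitor, and 13 fell and 3 rose in the HCT116 knockout. POLE3, a small subunit of polymerase epsilon, fell in both, by 0.28 ± 0.04 in A375 and by 0.28 ± 0.04 in HCT116, and TIPIN, of the fork protection complex, by 0.49 ± 0.08 in A375 and by 0.36 ± 0.08 in HCT116. GMNN, the inhibitor of CDT1, was at -0.40 ± 0.06 in A375 and -0.26 ± 0.06 in HCT116, and CHAF1A, a histone chaperone subunit, at -0.32 ± 0.04 in A375 and -0.18 ± 0.05 in HCT116. DSCC1, of an alternative clamp loader, was at -0.26 ± 0.06 in A375 and -0.32 ± 0.06 in HCT116, and ORC4, of the recognition complex, at -0.12 ± 0.07, not called, in A375 and -0.31 ± 0.07 in HCT116.

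Of 14 other nucleotide supply genes 11 fell and 1 rose in the A375 knockout, and 7 fell and 1 rose in the HCT116 knockout. CTPS1, CTP synthase, was at -0.33 ± 0.03 in A375 and -0.35 ± 0.05 in HCT116. UMPS, of pyrimidine synthesis, was at -0.18 ± 0.05 in A375 and -0.41 ± 0.06 in HCT116, and PAICS, of purine synthesis, at -0.22 ± 0.03 in A375 and -0.20 ± 0.03 in HCT116. DTYMK, thymidylate kinase, was at -0.32 ± 0.05 in A375 and -0.08 ± 0.05, not called, in HCT116.

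Of 16 G1/S control genes 8 fell and 4 rose in the A375 knockout, and 8 fell and 2 rose in the HCT116 knockout, so the share that rose was near that of all genes. CDC25A, the phosphatase that activates CDK2, was at -0.34 ± 0.04 in A375 and -0.62 ± 0.07 in HCT116, and cyclin A2 (CCNA2) at -0.38 ± 0.04 in A375 and -0.22 ± 0.04 in HCT116. Cyclin E1 (CCNE1) was at -0.11 ± 0.10, not called, in A375 and -0.59 ± 0.07 in HCT116. CDKN1A, the CDK inhibitor p21, rose in both, by 0.27 ± 0.04 in A375 and by 0.27 ± 0.04 in HCT116. TFDP1, the partner of E2F factors, was at -0.25 ± 0.03 in A375 and -0.11 ± 0.03 in HCT116, and CDK2 at -0.27 ± 0.04 in A375 and -0.20 ± 0.04 in HCT116. In A375 the medians were -0.18 for the other replication factors, -0.20 for the other nucleotide supply genes and -0.13 for the G1/S genes, beside 0.01 over all genes tested. In HCT116 they were -0.08, -0.12 and -0.09 for the same 3 lists, beside 0.00 over all genes tested.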

How the data were processed

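RNA was measured in 24 libraries, 3 for each of 8 groups (A375 and HCT116, PTDSS2 knockout clone and parent, inhibitor and vehicle). Libraries of poly(A) RNA were made, per the labels' protocols, with an NEBNext Ultra RNA kit, which does not mark strand. Per the submitters' processing notes, the tools were STAR 2.4.2a and RSEM 1.2.23 with hg19 as the genome. Nothing in the sources used here gives the strand setting, annotation release or filters. Per the file headers, the authors deposited RSEM's expected counts, which can be fractional since a read matching more than 1 gene is split between them. The deposited TPM, per the file headers, is scaled for length and library size. It was used to describe levels of genes, their sums and their ratios, also between groups, and entered no test. FPKM was not used.

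Expected counts were rounded to whole numbers. Of 25343 genes listed, 25220 were matched by numeric identifier to a symbol in a RefSeq table of GRCh38.p14, which was used for names and, with its own coordinates, for promoter sequences. The others held at most 0.0724% of a library's counts. Each line's 12 libraries were fitted with edgeR 4.0.16 (R 4.3.3; TMM factors, filterByExpr with minimum count 10 and minimum total 15, robust quasi-likelihood F test, two-sided), with 1 mean per group. Benjamini-Hochberg adjustment was over all genes tested, with a threshold of 0.05. The lines were compared in 1 fit of all 24 libraries. Log2 fold changes are inhibitor over vehicle, knockout over parent or A375 over HCT116, and their errors are standard errors, the size divided by the square root of F. CPM carries the TMM factors of each line. The procedure was tested on simulated data with set fold changes, most of them larger than the inhibitor effects on the members. That test does not show how well smaller effects are called.

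In units of 1e6 counts, library totals were 6.21 to 11.69, with a median of 9.20, which limits precision by counting error. No pair of replicates agreed within sampling noise. Per-library values are given, by a written rule, for the 2 members of each role with the smallest adjusted p in each knockout, the largest called differences between the knockouts, and the largest called differences of knockout against parent. Up to 4 genes of each other list were named by smallest adjusted p in each knockout, with the same genes' values in the other line. The members, lists and rules were chosen with earlier results of these data known, so patterns here are no independent support. Replicate numbers were checked as pairs: 2 of 18 same-number correlations exceeded 0.1 in each line, so the numbers were not taken to pair the libraries.

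As alternatives, scaling was by DESeq2 size factors or by library size alone, the filter was dropped or set to a mean CPM of 5, and DESeq2 1.42.0 replaced edgeR. A replicate block, a fit of only the libraries compared, and each library left out in turn were also tried. A correction for transcript GC content was added after the data had been seen. Motifs were searched as exact letters on both strands. One gene that the naming rule picked is not reported here.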

Additional observations from a re-analysis of the deposited data

Results flagged for a closer look

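The inhibitor effect differed between knockout and parent for 31 of 39 members downward in A375 and for 19 downward in HCT116, each by the test of the difference. Of all genes, 14% in A375 and 13.8% in HCT116 were called downward. Between the knockouts of A375 and HCT116 the inhibitor effect differed for 13 members downward and 2 upward, where 8.75% of all genes were called downward and 10.9% upward. The largest such differences in the log2 effect, A375 minus HCT116, were MCM5 at -0.49, CDT1 at -0.49, PRIM1 at -0.36, CDC6 at 0.27 and FEN1 at 0.21. No single library stood apart by a test, since groups of 3 libraries are too small for one.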

How the results depend on the processing

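No member count changed direction. Of 6084 member values under the alternatives, 5791 kept their side of the threshold, 227 lost a call and 66 gained one. Direction was checked only for values called in the main fit or in the alternative, and none of these reversed. Calls that held in every alternative were 29 of 35 for the inhibitor in the A375 knockout (all but ORC6, CDC45, GINS3, POLA2, FEN1 and E2F2), 18 of 21 in the HCT116 knockout (all but MCM2, PRIM2 and RFC2) and 14 of 15 for the difference between the knockouts (all but MCM3). For the genotype by inhibitor interaction they were 24 of 31 in A375 and 12 of 19 in HCT116. With DESeq2 the HCT116 count of the interaction was 12 against 19, and the counts for knockout against parent in vehicle were 6 against 11 in A375 and 6 against 11 in HCT116. With library size alone the A375 count for knockout against parent in vehicle was 5 against 11. The cause of these moves was not tested.

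With 1 library left out, the counts ran from 30 to 34 for the inhibitor in the A375 knockout and from 18 to 21 in the HCT116 knockout. Without A375 knockout inhibitor replicate 3 the calls of ORC6, CDC45, GINS3, POLA2, FEN1 and E2F2 were all lost. Without HCT116 knockout inhibitor replicate 3 those of MCM2, PRIM2 and RFC2 were lost. For knockout against parent in vehicle they ran from 7 to 10 in A375, with 7 without parent vehicle replicate 1, and from 6 to 11 in HCT116, with 7 without knockout vehicle replicate 1 and 6 without knockout vehicle replicate 3. For the interaction they ran from 27 to 30 in A375 and from 15 to 19 in HCT116, for the difference between the knockouts from 14 to 17, and for A375 against HCT116 parent vehicle from 33 to 35. In the parents the inhibitor called 0 members in every alternative.

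With a replicate block, for numbers that do not pair the libraries, the counts were 34 and 21 for the inhibitor in the A375 and HCT116 knockouts, 11 and 12 for knockout against parent, 32 and 20 for the interaction, 16 between the knockouts and 35 between the parents. Using only the libraries compared gives no separate value for the interaction, which takes all 12 libraries of a line. Over all genes DESeq2 called 3826 against 5048 for the inhibitor in the A375 knockout and 3631 against 4889 in the HCT116 knockout. In the 250 bases before the start, 15 promoters held an E2F match against 21 in the whole window. The smallest called inhibitor effect on a member was -0.10 on the log2 scale, for MCM2 in HCT116, and no smaller effect on a member was called at this depth and spread.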
